A study of Drosophila melanogaster with 6 samples.

Results

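Glia are the non-neuronal cells of the nervous system, and in the fly they insulate, feed and shape it. The transcription factor encoded by *gcm* switches neural precursors of the *Drosophila* embryo to the glial fate, and it turns on *repo*, which glia then keep expressing. In the adult ventral nerve cord (VNC, the fly counterpart of the spinal cord), surface glia seal the blood-brain barrier with septate junctions, cortex glia wrap cell bodies, and astrocyte-like glia clear transmitters from the synaptic neuropil. The 10 genes described here mark these steps and layers. They are *repo*, *gcm* and *gcm2* for fate, *moody*, *Nrg* and *nrv2* for the barrier and its junctions, *wrapper* for cortex and midline glia, and *alrm*, *Eaat1* and *Gat* for astrocyte-like glia. They were taken by exact gene symbol from the 17494 genes of the count table, and each of them was found.

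Bulk RNA-seq compared 3 conditions, each with 2 libraries. *pros Syp* RNAi tumors were neuroblast (NB) tumors induced with *poxn-GAL4*, *UAS-dicer2*, *UAS-mCherry.NLS*, *UAS-SypRNAi1* and *UAS-prosRNAi1*. *pros* RNAi tumors carried the same transgenes without the *Syp* construct. Wild-type VNCs held no tumor, and their strain is not given in the sources used here. All flies are labelled as adults of 6 days, while the methods name an older age for the tumor-bearing flies. *poxn-GAL4* is active in a few thoracic NBs and in the tumor NBs they produce, so that glia were not the cells targeted. Tumors were dissected together with the VNC on which they grew, and pooled VNCs gave each library. The methods call the pairs technical replicates, so p-values measure the spread between these libraries, which may be technical. A drop of a glial transcript in such bulk RNA can come from fewer glia among more other cells or from less RNA per glial cell, and these cannot be told apart.

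Library totals ranged from 86098417 to 128107088 counts, with 15.6% to 23.8% of the counts on rRNA genes. Levels are given as CPM, which are counts scaled to a fixed library total, after TMM scaling (trimmed mean of M-values) over the 6 libraries. The knocked-down *Syp* was at 416 and 465 CPM in *pros Syp* RNAi tumors, against 2047 and 1765 CPM in *pros* RNAi tumors, and 705 and 689 CPM in wild-type VNCs. *pros* was at 1030 and 1269 CPM in *pros Syp* RNAi tumors, at 729 and 809.7 CPM in *pros* RNAi tumors, and at 2527 and 2338 CPM in wild-type VNCs. The 6 NB markers summed to 1781 to 1892 CPM in *pros Syp* RNAi tumors, to 2270 to 2401 CPM in *pros* RNAi tumors and to 11.7 to 12.7 CPM in wild-type VNCs. The 5 general glial markers and the 10 neuron markers were above 0 in every library. The 10 glial genes together took 0.141% to 0.171% of all counts in *pros Syp* RNAi tumors, 0.0899% to 0.0937% in *pros* RNAi tumors and 0.269% to 0.297% in wild-type VNCs.

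Of the 10 glial genes, *repo*, *moody*, *nrv2*, *wrapper* and *alrm* were lower in both kinds of tumor than in wild-type VNCs, although relative to neuron markers only *repo* and *wrapper*, and only in *pros Syp* RNAi tumors, were called lower. *gcm* and *Nrg* were higher in both tumors. With TMM *Eaat1* was higher than wild type in *pros Syp* RNAi tumors and lower in *pros* RNAi tumors, and *Gat* was lower in *pros* RNAi tumors only. Relative to neuron markers *Eaat1* (log2 fold change 2.02) and *moody* (0.79) were instead higher in *pros* RNAi tumors, where *Gat* did not pass. On that scale *Gat* was higher than wild type in *pros Syp* RNAi tumors (1.34). Between the tumors *Gat*, *alrm*, *nrv2*, *Eaat1* and *gcm* were higher in *pros Syp* RNAi tumors and *wrapper* was lower, although relative to neuron markers only *Gat* and *gcm* of those 5 stayed higher. Genes were called at an adjusted p under 0.05 in edgeR's quasi-likelihood test. In *pros* RNAi tumors against wild type, 9 of the 10 genes passed the filter on low counts, 7 were lower and 2 higher, while 82.6% of all 14162 genes tested were called (41.9% higher, 40.7% lower). Their median log2 fold change was -2.18, beside 0.0079 over all genes tested. In *pros Syp* RNAi tumors against wild type, 5 of 10 were lower, 3 were higher and 2 did not pass, where the calls over all 14289 genes made up 76.5% (39.8% higher, 36.7% lower), and the median was -0.86 beside 0.043. In *pros Syp* against *pros* RNAi tumors, 5 of 10 were higher, 1 was lower and 4 did not pass, with 23.3% of all 13703 genes called (10.9% higher, 12.4% lower), and the median was 0.76 beside 0.017. Relative to neuron markers, 4 of the 9 were higher in *pros* RNAi tumors than in wild type, where 72.9% of all genes were called higher and 4.76% lower. On that scale 5 of the 10 were higher and 2 lower in *pros Syp* RNAi tumors against wild type (69.2% higher and 7.25% lower over all genes), and 2 were higher and 4 lower in *pros Syp* against *pros* RNAi tumors (3.63% higher and 23.2% lower over all genes). The low *gcm* entered the tests only through its tumor libraries, and *gcm2* only through the *pros Syp* RNAi tumors. The comparisons share libraries pairwise, so that their values for a gene are not independent of each other.

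**Figure D1:**
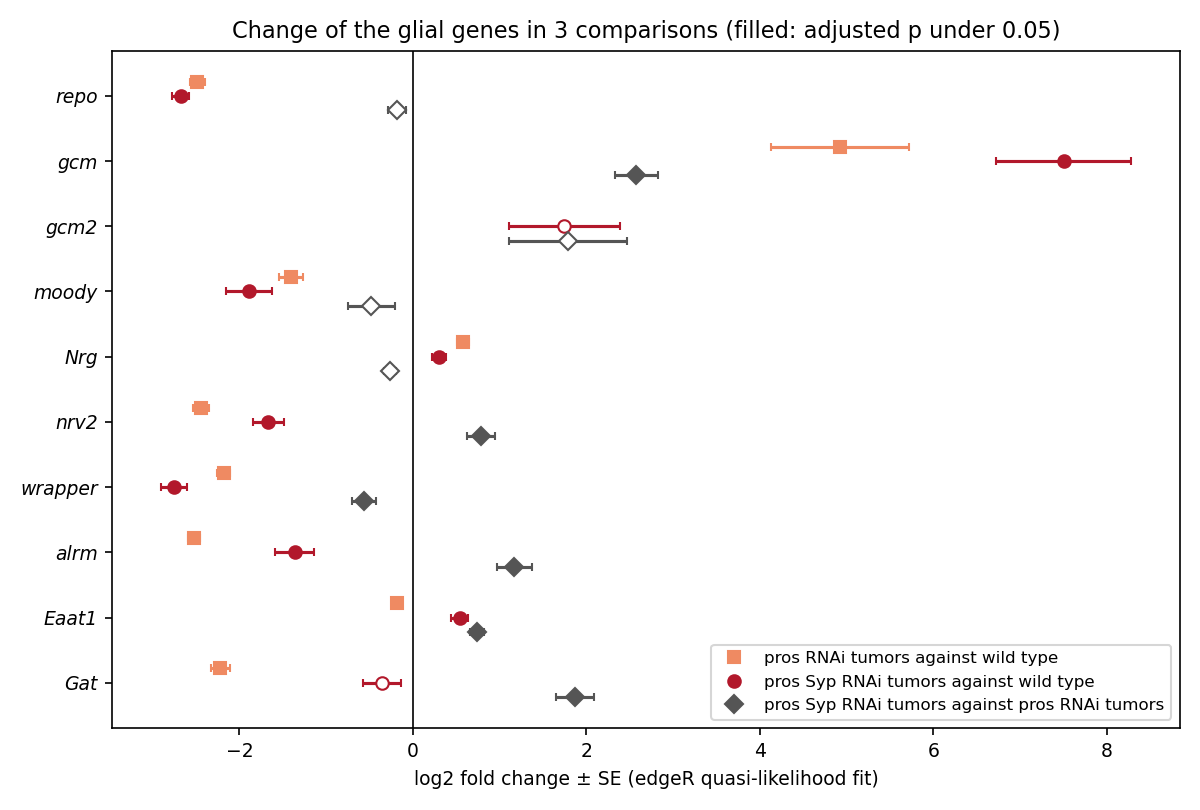
Log2 fold change with its standard error (x axis) for each glial gene (rows) in the 3 comparisons, with filled symbols for an adjusted p under 0.05. *repo*, *nrv2*, *alrm* and *Gat* sat between -2.52 and -2.22 in *pros* RNAi tumors against wild type with TMM (none of the 4 passed relative to neuron markers), and *Gat* had the largest difference between the tumors after *gcm*, at 1.87.

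The calls between the tumors depended on both *pros* RNAi libraries. With replicate 1 of the *pros* RNAi tumors left out, edgeR's quasi-likelihood test called 0 of the 10 glial genes (7 had an unadjusted p under 0.05) and 235 of all genes. With replicate 2 left out it called 0 of the 10 (5 at an unadjusted p under 0.05) and 6 of all genes. In both fits the lone library was assumed to vary like the *pros Syp* pair. DESeq2's Wald test, run only on the full set of 4 libraries, called 7 of the 10 and 4077 of all 13703 genes. On that set edgeR called 6 of the 10 and 3190 of all genes.

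*repo* encodes the homeodomain factor that marks nearly all lateral glia (chromosome 3R, 18236192 to 18239602, Release 6 assembly of the fly genome). It was at 20.8 and 24.3 CPM in *pros Syp* RNAi tumors, at 23.8 and 27.2 CPM in *pros* RNAi tumors, and at 147 and 142 CPM in wild-type VNCs. All tumor libraries were far below both wild-type libraries, and the ranges of the tumors overlapped. *repo* fell by 2.49 on the log2 scale in *pros* RNAi tumors against wild type (SE 0.085, adjusted p = 7.45e-06) and by 2.68 in *pros Syp* RNAi tumors against wild type (SE 0.099, adjusted p = 7.16e-05). *pros Syp* and *pros* RNAi tumors differed by -0.18 on that scale (SE 0.10, adjusted p = 0.255), which did not pass. Of its exon bases, 6.11% overlap *CG7156*, which was at 20.3 to 25.5 CPM in all 6 libraries, and featureCounts gave reads in the overlap to both genes.

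*gcm*, the glial switch gene, went the other way (chromosome 2L, 9579498 to 9581745). It had 367 and 348 counts in *pros Syp* RNAi tumors, 54 and 35 counts in *pros* RNAi tumors, and 0 and 4 counts in wild-type VNCs. These are 2.77 and 3.40 CPM, 0.576 and 0.452 CPM, and 0 and 0.0303 CPM, so that the conditions did not overlap and per kilobase of exon the gene stayed far below *repo* in each. Between the tumors *gcm* was 5.95-fold higher in *pros Syp* RNAi tumors (log2 fold change 2.57, SE 0.25, adjusted p = 0.00816). The adjusted p became 0.0589 without replicate 1 and 0.0695 without replicate 2 of the *pros* RNAi tumors, at log2 fold changes of 2.77 and 2.41. Against wild type the fitted fold change rests on a handful of counts, so the ratio of summed scaled counts is given. It was 187 in *pros Syp* RNAi tumors (95% exact interval 72.9 to 690, counting error only) and 32.0 in *pros* RNAi tumors (12.1 to 120). In these comparisons *gcm* passed the filter on low counts only through its tumor libraries. Its edgeR calls against wild type are therefore no separate support for a rise. *gcm* shares 5.89% of its exon bases with *CG31709*, which had 23 and 18 counts in *pros Syp* RNAi tumors, 0 and 0 counts in *pros* RNAi tumors and 2 and 1 counts in wild-type VNCs.

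*gcm* is also used by embryonic blood cells (hemocytes), and their part in its level was not tested. The 8 hemocyte markers summed to 69.7 and 80.2 CPM in *pros Syp* RNAi tumors, to 75.6 and 84.7 CPM in *pros* RNAi tumors and to 207 and 237 CPM in wild-type VNCs. In these sums *ush* alone was at 41.9 and 42.2 CPM, 44.0 and 54.8 CPM, and 12.6 and 10.1 CPM in the same order. Of the 8 markers 7 were lower and 1 (*ush*) higher in each tumor against wild type. Between the tumors 0 of the 7 tested were called, and 1 (*NimC2*) had an unadjusted p under 0.05. *He* was at 0 counts in replicate 2 of the *pros* RNAi tumors and replicate 1 of the *pros Syp* RNAi tumors, and *Hml* and *Pxn* were detected in every library.

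*gcm2* is the paralog beside *gcm* with a similar, partly redundant role (chromosome 2L, 9608562 to 9612706). It had 20 and 22 counts in *pros Syp* RNAi tumors, 7 and 2 counts in *pros* RNAi tumors, and 9 and 4 counts in wild-type VNCs. Both *pros Syp* libraries were above the other 4, which overlapped each other. The log2 fold change was 1.79 between the tumors (SE 0.68, adjusted p = 0.121) and 1.75 in *pros Syp* RNAi tumors against wild type (SE 0.64, adjusted p = 0.0600), and neither passed the threshold. At this depth a difference between *pros* RNAi tumors and wild type was not detectable (ratio of summed scaled counts 1.00, 95% exact interval 0.376 to 2.52). A read shared by stretches identical in both paralogs could not be assigned with certainty.

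**Figure D2:**
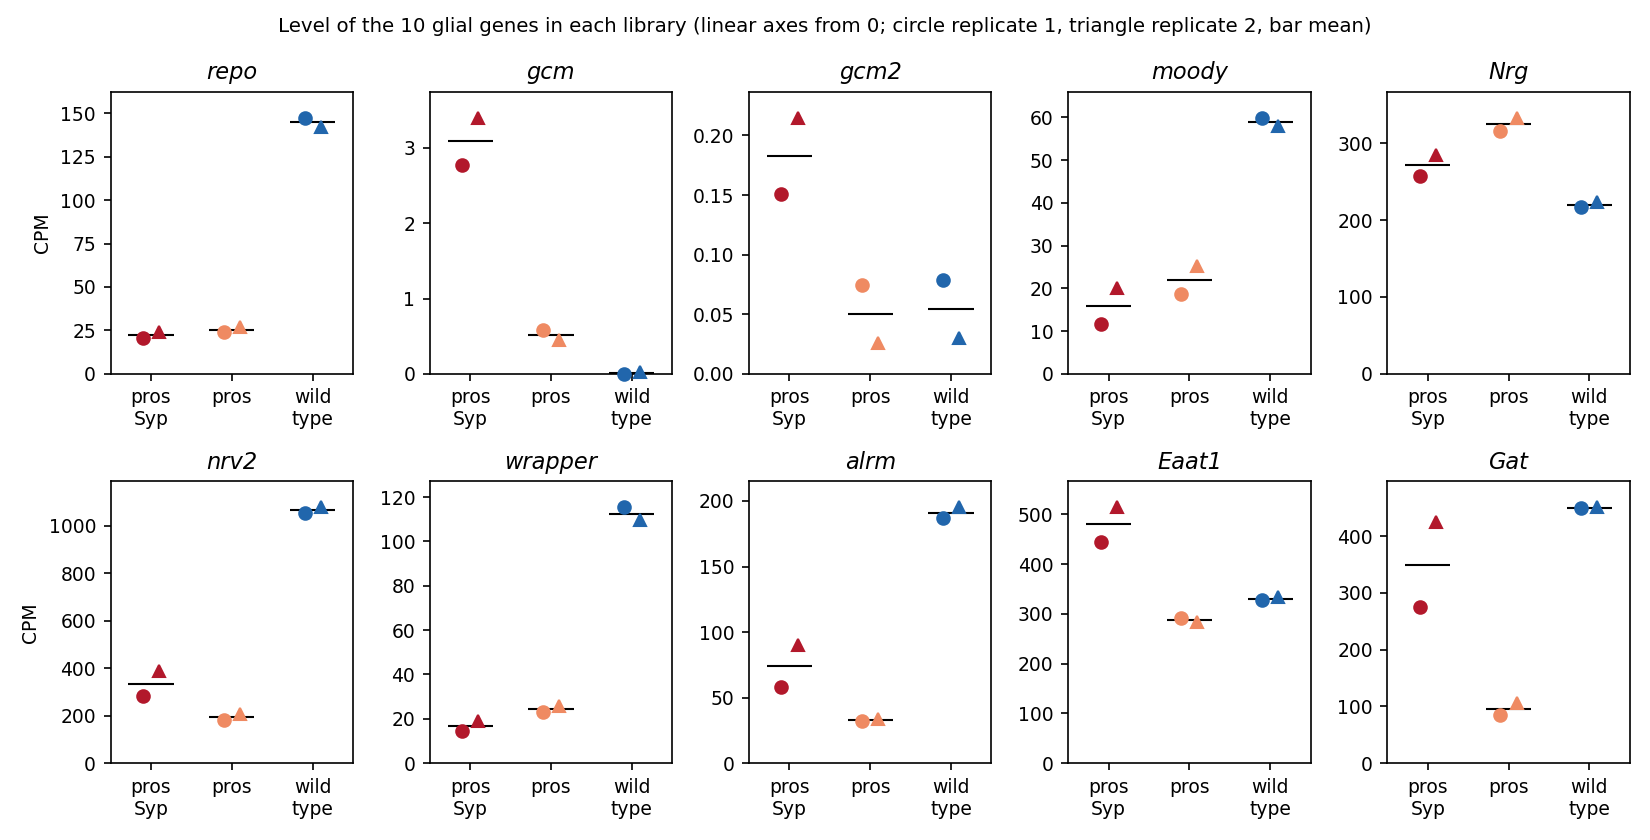
CPM of each glial gene in each library (y axes, linear from 0), with *pros Syp* RNAi tumors, *pros* RNAi tumors and wild-type VNCs from left to right, circles for replicate 1, triangles for replicate 2 and bars for the mean. *repo*, *moody*, *nrv2*, *wrapper* and *alrm* were highest in wild-type VNCs, *Nrg* in *pros* RNAi tumors, and *gcm*, *gcm2* and *Eaat1* in *pros Syp* RNAi tumors.

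Among the barrier genes, *moody* encodes a G-protein-coupled receptor that subperineurial glia need to keep the barrier tight (chromosome X, 2044292 to 2050120). It was at 11.8 and 20.0 CPM in *pros Syp* RNAi tumors, at 18.8 and 25.3 CPM in *pros* RNAi tumors, and at 59.9 and 58.0 CPM in wild-type VNCs. The tumors overlapped each other and lay below wild type. *moody* fell by 1.89 on the log2 scale in *pros Syp* RNAi tumors against wild type (SE 0.27, adjusted p = 0.00273) and by 1.40 in *pros* RNAi tumors against wild type (SE 0.14, adjusted p = 0.000271). The difference between the tumors was -0.48 on the log2 scale (SE 0.28, adjusted p = 0.264), and it was -0.89 (adjusted p = 0.0412) without replicate 2 of the *pros Syp* RNAi tumors.

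*nrv2* encodes a beta subunit of the Na+/K+ ATPase that is widely used as a pan-glial driver and also takes part in septate junctions (chromosome 2L, 6789770 to 6798862). It was at 281 and 389 CPM in *pros Syp* RNAi tumors, at 180.4 and 207 CPM in *pros* RNAi tumors, and at 1052 and 1079 CPM in wild-type VNCs. The 3 conditions did not overlap. It was 3.17-fold lower in *pros Syp* RNAi tumors (adjusted p = 0.00104) and 5.44-fold lower in *pros* RNAi tumors (adjusted p = 8.55e-06) than in wild type. *nrv2* was 1.73-fold higher in *pros Syp* than in *pros* RNAi tumors (log2 fold change 0.79, SE 0.16, adjusted p = 0.0308), a call that was lost without either *pros* RNAi library (adjusted p = 0.155 without replicate 1 and 0.116 without replicate 2).

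*Nrg* encodes Neuroglian, an L1-type adhesion protein found in septate junctions and also on neurons (chromosome X, 8517373 to 8555170). It was at 257 and 285 CPM in *pros Syp* RNAi tumors, at 315 and 333 CPM in *pros* RNAi tumors, and at 217 and 223 CPM in wild-type VNCs. It was the only barrier gene of the 3 with both tumors above wild type, and the conditions did not overlap. *Nrg* was 1.49-fold higher in *pros* RNAi tumors (adjusted p = 0.000422) and 1.24-fold higher in *pros Syp* RNAi tumors (adjusted p = 0.0220) than in wild type. The *pros Syp* call was lost without either wild-type library (adjusted p = 0.0731 without replicate 1 and 0.0567 without replicate 2) and with library totals as the scaling (adjusted p = 0.207). The tumors differed by -0.26 on the log2 scale (SE 0.071, adjusted p = 0.0589), and DESeq2's Wald test gave an adjusted p of 0.0143.

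*wrapper*, which encodes an immunoglobulin-family protein of midline and cortex glia, was lower in both tumors, as *repo* was (chromosome 2R, 22379637 to 22382675). It was at 14.4 and 18.9 CPM in *pros Syp* RNAi tumors, at 23.3 and 25.8 CPM in *pros* RNAi tumors, and at 116 and 109.6 CPM in wild-type VNCs. No condition overlapped another. *wrapper* was 6.75-fold lower in *pros Syp* RNAi tumors (adjusted p = 0.000153) and 4.54-fold lower in *pros* RNAi tumors (adjusted p = 8.08e-06) than in wild type. It was the only one of the 10 that was called lower between the tumors (-0.56 on the log2 scale, SE 0.14, adjusted p = 0.0438). That call was lost without replicate 1 (adjusted p = 0.139) or replicate 2 (0.191) of the *pros* RNAi tumors, without replicate 1 of the *pros Syp* RNAi tumors (0.0572), and with totals that leave out rRNA and mitochondrial genes (0.0596).

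The astrocyte-like glia genes were higher in *pros Syp* than in *pros* RNAi tumors, as were the summed neuron and muscle markers, whose values are given with the marker lists. *alrm* encodes a leucine-rich repeat protein used as an astrocyte marker (chromosome 3R, 25381065 to 25382781). It was at 58.1 and 90.2 CPM in *pros Syp* RNAi tumors, at 32.3 and 33.4 CPM in *pros* RNAi tumors, and at 187 and 195 CPM in wild-type VNCs. The *pros Syp* libraries lay between the other conditions. *alrm* was 2.57-fold lower in *pros Syp* RNAi tumors (adjusted p = 0.00448) and 5.75-fold lower in *pros* RNAi tumors (adjusted p = 5.42e-06) than in wild type, and 2.25-fold higher in *pros Syp* than in *pros* RNAi tumors (log2 fold change 1.17, SE 0.20, adjusted p = 0.0218). Without replicate 1 or replicate 2 of the *pros* RNAi tumors, the adjusted p of the last difference was 0.126 or 0.118.

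*Gat* encodes the plasma membrane GABA transporter of astrocyte-like glia (chromosome 4, 629691 to 635350). It was at 275 and 424 CPM in *pros Syp* RNAi tumors, at 85.6 and 105 CPM in *pros* RNAi tumors, and at 449 and 451 CPM in wild-type VNCs. Replicate 2 of the *pros Syp* RNAi tumors came close to wild type, whereas the *pros* RNAi tumors stayed far below. *Gat* was 3.65-fold higher in *pros Syp* than in *pros* RNAi tumors (log2 fold change 1.87, SE 0.22, adjusted p = 0.0111), and 4.66-fold lower in *pros* RNAi tumors than in wild type (adjusted p = 1.74e-05). The adjusted p between the tumors was 0.0833 without replicate 1 and 0.0732 without replicate 2 of the *pros* RNAi tumors. *pros Syp* RNAi tumors differed from wild type by -0.36 on the log2 scale (SE 0.22, adjusted p = 0.192), and without replicate 2 of the *pros Syp* RNAi tumors it was -0.71 (adjusted p = 0.000718). With library totals as the scaling it was -0.51 (adjusted p = 0.0460).

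*Eaat1* encodes the high-affinity glutamate transporter of glia (chromosome 2L, 9333567 to 9341925). It was at 444 and 515 CPM in *pros Syp* RNAi tumors, at 291 and 284 CPM in *pros* RNAi tumors, and at 328 and 333 CPM in wild-type VNCs. It was thus highest in *pros Syp* RNAi tumors, with no overlap of conditions. *Eaat1* was 1.66-fold higher in *pros Syp* than in *pros* RNAi tumors (log2 fold change 0.73, SE 0.082, adjusted p = 0.0102, and 0.0746 or 0.0790 without replicate 1 or 2 of the *pros* RNAi tumors). Against wild type it was 1.45-fold higher in *pros Syp* RNAi tumors (adjusted p = 0.00627). *pros* RNAi tumors lay slightly under wild type, at -0.18 on the log2 scale (SE 0.063, adjusted p = 0.0368), and this call was lost without replicate 1 (adjusted p = 0.0933) or replicate 2 (0.148) of the wild type and without replicate 2 of the *pros* RNAi tumors (0.0884), and in a joint fit of the 6 libraries (0.0682).

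Per kilobase of exon, the order of the genes differed between the conditions. In *pros Syp* RNAi tumors the highest mean levels were those of *Eaat1* (153 CPM per kb), *Gat* (121 CPM per kb) and *nrv2* (93.9 CPM per kb), neighbours whose libraries overlapped, and *wrapper* (8.42 CPM per kb) overlapped *repo* (7.53 CPM per kb). In *pros* RNAi tumors *Eaat1* was first (91.6 CPM per kb), before *nrv2* (54.2 CPM per kb), and *Gat* (33.0 CPM per kb) overlapped *Nrg* (32.5 CPM per kb). In wild-type VNCs *nrv2* was first (299 CPM per kb), before *Gat* (155 CPM per kb), *alrm* (111 CPM per kb) and *Eaat1* (105 CPM per kb), and only *gcm2* and *gcm*, at the bottom, overlapped. *moody* stood below *repo* in all 3 conditions, and *gcm* above *gcm2* in both tumors.

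The level of each gene relative to *repo*, per kilobase of exon, differed in how it varied across the conditions. In *pros* RNAi tumors *nrv2* was 6.36 and 6.37 times *repo*, against 5.99 and 6.38 times in wild-type VNCs, and *alrm* was 2.37 and 2.14 times *repo*, against 2.21 and 2.40 times. For both genes these ranges overlapped, so that they moved with *repo* there. *Gat* was at least 3.72 times *repo* in *pros* RNAi tumors, against at most 3.29 times in wild-type VNCs. In *pros Syp* RNAi tumors the same ratios were larger than in *pros* RNAi tumors, with 11.3 and 13.4 for *nrv2*, 4.87 and 6.48 for *alrm*, and 13.7 and 18.1 for *Gat*. *Eaat1* departed from *repo* in both tumors, at 20.4 and 20.2 times *repo* in *pros Syp* RNAi tumors, 11.6 and 9.97 times in *pros* RNAi tumors, and 2.13 and 2.24 times in wild-type VNCs. *Nrg* did so as well, at 3.70 and 3.52 times, 3.97 and 3.67 times, and 0.441 and 0.471 times *repo* in *pros Syp* RNAi tumors, *pros* RNAi tumors and wild-type VNCs. *moody* was at 0.430 and 0.627 times *repo* in *pros Syp* RNAi tumors, 0.599 and 0.707 times in *pros* RNAi tumors and 0.309 and 0.311 times in wild-type VNCs, a smaller departure with both tumors above wild type. *wrapper* was at 1.05 and 1.18 times *repo* in *pros Syp* RNAi tumors, 1.48 and 1.43 times in *pros* RNAi tumors and 1.19 and 1.17 times in wild-type VNCs. The *pros* RNAi tumors thus lay above the other conditions, which overlapped each other.

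**Figure D3:**
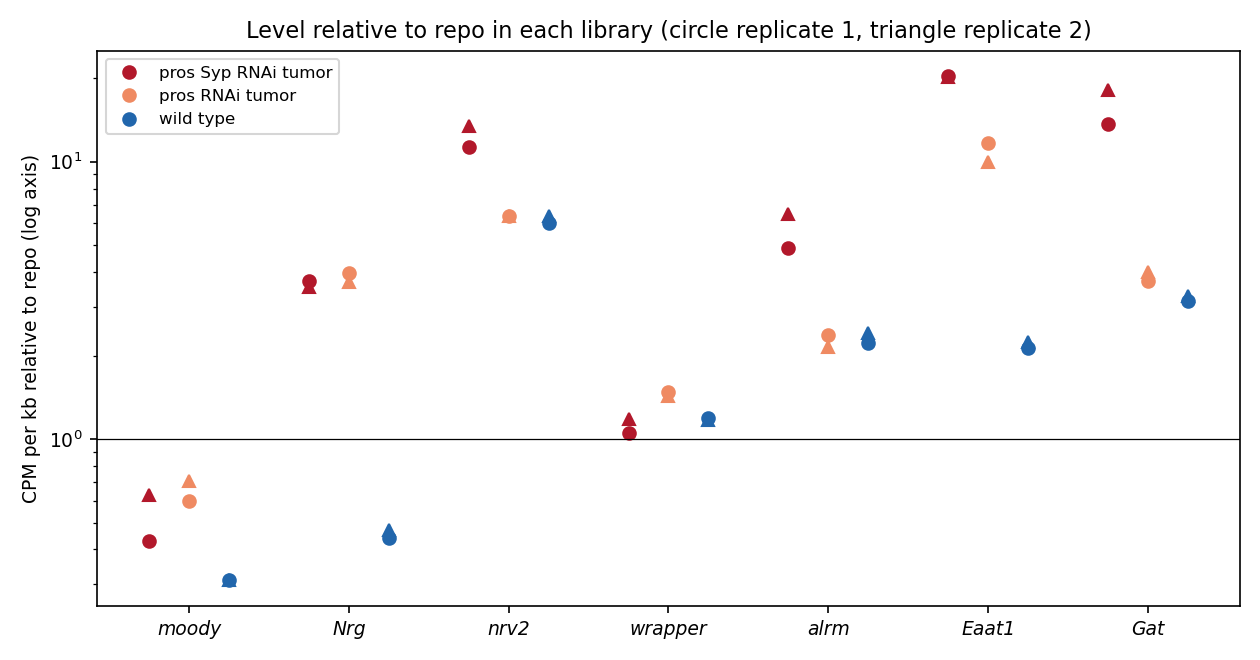
Level of 7 glial genes relative to *repo* in each library (CPM per kb of the gene over CPM per kb of *repo*, log axis), with *pros Syp* RNAi tumors left, *pros* RNAi tumors in the middle and wild-type VNCs right for each gene. *nrv2* and *alrm* had overlapping ratios in *pros* RNAi tumors and wild-type VNCs and higher ones in *pros Syp* RNAi tumors, while *Eaat1* and *Nrg* were far higher in both tumors than in wild-type VNCs.

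As a description of likeness, each gene's log2 CPM was centred on its own mean over the 6 libraries, and genes were compared by the root mean square distance, in log2 units. Among the 10 genes the closest pairs were *alrm* with *nrv2* (0.169) and *wrapper* with *repo* (0.175). *gcm* lay farthest from the others, at 2.36 to 3.96. Among 7455 other genes with a mean of at least 10 CPM, those most like *repo* were *sNPF-R* (0.0592), *CG34136* (0.0618), *ATP8B* (0.0686), *pnt* (0.0690) and *unc79* (0.0755). *pnt*, which encodes an ETS factor active in glia, was at 5.59 and 6.60 CPM in *pros Syp* RNAi tumors, at 6.80 and 8.47 CPM in *pros* RNAi tumors, and at 41.2 and 40.6 CPM in wild-type VNCs. *sNPF-R*, a receptor for the short neuropeptide F, was at 6.03 and 7.48 CPM, 7.14 and 8.69 CPM, and 41.6 and 43.5 CPM in the same order of conditions. The 6 libraries hold only 3 conditions, so a small distance says little beyond 3 similar mean levels.

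A list of 38 other glial genes was read from the same fits. In *pros* RNAi tumors against wild type, 30 were lower and 7 higher with TMM (median log2 fold change -1.79). Over all genes 40.7% were lower and 41.9% higher (median 0.0079). Relative to neuron markers 8 were lower and 21 higher, a scale on which 72.9% of all genes were called higher and 4.76% lower. In *pros Syp* RNAi tumors against wild type, 29 were lower and 5 higher (median -1.33). Over all genes 36.7% were lower and 39.8% higher (median 0.043). Relative to neuron markers 6 were lower and 16 higher, where the shares over all genes were 7.25% lower and 69.2% higher. Between the tumors 9 were higher, 5 were lower and 24 did not pass (median 0.15). Over all genes 10.9% were higher and 12.4% lower (median 0.017). Relative to neuron markers 2 were higher and 8 lower, where 3.63% of all genes were higher and 23.2% lower. Without replicate 1 of the *pros* RNAi tumors edgeR called 1 of the 38 between the tumors, and without replicate 2 it called 0 (15 and 21 at an unadjusted p under 0.05).

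The surface glia list held transport and matrix genes (*Mdr65*, *Tret1-1*, *Oatp58Dc*, *CG6126*, *SPARC*, *vkg*, *Col4a1* and *trol*). All 8 were lower in each tumor than in wild type. Over all genes 36.7% were lower in *pros Syp* and 40.7% in *pros* RNAi tumors. Relative to neuron markers 3 were lower and 0 higher in *pros Syp* RNAi tumors (7.25% and 69.2% of all genes). On that scale 4 were lower and 1 higher in *pros* RNAi tumors (4.76% and 72.9% of all genes). *Oatp58Dc*, an organic anion transporter of the barrier, was at 6.95 and 9.75 CPM in *pros Syp* RNAi tumors, at 8.13 and 10.2 CPM in *pros* RNAi tumors, and at 74.1 and 74.6 CPM in wild-type VNCs. *Mdr65*, an efflux pump of the barrier, was at 31.2 and 51.8 CPM in *pros Syp* RNAi tumors and 15.0 and 18.5 CPM in *pros* RNAi tumors, and was called higher in *pros Syp* RNAi tumors (log2 fold change 1.30, adjusted p = 0.0274). Only 2 of the 8 genes of this list were called between the tumors, *Mdr65* and the matrix gene *vkg*. Both were higher, beside 10.9% of all genes. Which cells gave the transcripts of the matrix genes *SPARC*, *vkg*, *Col4a1* and *trol* was not tested. Of the 8 hemocyte markers 7 were also lower and 1 higher in each tumor than in wild type.

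The 16 septate junction genes were mixed, as *Nrg* and *nrv2* were. In *pros* RNAi tumors against wild type 9 were lower and 6 higher (40.7% lower and 41.9% higher over all genes). In *pros Syp* RNAi tumors against wild type 9 were lower and 3 higher (36.7% lower and 39.8% higher over all genes). Relative to neuron markers 12 were higher in *pros Syp* RNAi tumors (69.2% of all genes) and 16 in *pros* RNAi tumors (72.9% of all genes). *crok*, a Ly6-family protein needed to form the junctions, was higher in both tumors with TMM (log2 fold changes 0.77 in *pros Syp* and 1.31 in *pros* RNAi tumors). *nrv1*, another beta subunit of the pump, fell by 1.79 on the log2 scale in *pros* RNAi tumors. *Lac*, an immunoglobulin-family junction protein, fell by 1.64 in *pros Syp* RNAi tumors against wild type and by 1.06 in *pros Syp* against *pros* RNAi tumors (adjusted p = 0.0424). *Atpalpha*, the catalytic subunit that pairs with the *nrv2* product, was the only junction gene called higher between the tumors (log2 fold change 0.84, SE 0.20, adjusted p = 0.0454), beside 0.79 for *nrv2* itself. Of the 16, 4 were called lower there (10.9% higher and 12.4% lower over all genes).

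The 7 astrocyte-like and transmitter clearance genes were lower in both tumors, 7 of 7 in each comparison with wild type. Over all genes 36.7% were lower in *pros Syp* and 40.7% in *pros* RNAi tumors. Relative to neuron markers 1 was lower and 1 higher in *pros Syp* RNAi tumors (7.25% and 69.2% of all genes). In *pros* RNAi tumors 2 were lower and 1 higher on that scale (4.76% and 72.9% of all genes). Between the tumors 4 of 7 were higher in *pros Syp* RNAi tumors with TMM (median 0.63), beside 10.9% of all genes. Relative to neuron markers the median was 0.16 and no gene was called by edgeR. *Eaat2*, the relative of *Eaat1* that transports aspartate and taurine, was at 31.8 and 34.7 CPM in *pros Syp* RNAi tumors, at 19.0 and 23.9 CPM in *pros* RNAi tumors, and at 162 and 171 CPM in wild-type VNCs. Unlike *Eaat1* it was thus far below wild type in both tumors, with log2 fold changes of -2.32 in *pros Syp* and -2.94 in *pros* RNAi tumors. *Obp44a*, an odorant-binding protein abundant in central glia, was at 177 and 293 CPM in *pros Syp* RNAi tumors and at 104 and 112 CPM in *pros* RNAi tumors (log2 fold change 1.12, adjusted p = 0.0315).

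Both cortex glia genes and both ensheathing glia genes were lower in each tumor than in wild type. Over all genes 36.7% were lower in *pros Syp* and 40.7% in *pros* RNAi tumors. Relative to neuron markers 1 ensheathing gene was higher and 1 lower in each tumor. Of the cortex genes 1 was lower, in *pros* RNAi tumors only. On that scale 69.2% of all genes were higher and 7.25% lower in *pros Syp* RNAi tumors. In *pros* RNAi tumors these shares were 72.9% and 4.76%. *zyd*, a sodium, potassium and calcium exchanger of cortex glia, was higher in *pros Syp* than in *pros* RNAi tumors (log2 fold change 0.77, SE 0.070, adjusted p = 0.00741), whereas *wrapper* was lower. *Cyp4g15*, a cytochrome P450 of cortex glia, fell by 1.81 on the log2 scale in *pros Syp* RNAi tumors against wild type. *CG9657*, a predicted sodium-coupled transporter from the ensheathing glia list, fell by 3.10 in *pros Syp* RNAi tumors and by 3.84 in *pros* RNAi tumors against wild type, more than any of the 10 genes.

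Of the 3 fate and early glia genes, *ttk* and *loco* departed from *repo*. *ttk*, a repressor that blocks neuronal fate in developing glia, was at 40.9 and 44.0 CPM in *pros Syp* RNAi tumors, at 10.8 and 11.3 CPM in *pros* RNAi tumors, and at 29.0 and 27.8 CPM in wild-type VNCs. It was higher in *pros Syp* than in *pros* RNAi tumors (log2 fold change 1.94, SE 0.069, adjusted p = 0.00315), as *gcm* was. *loco*, a regulator of G-protein signaling that acts downstream of *gcm* in embryonic glia and with *moody* at the barrier, was at 66.6 and 69.4 CPM in *pros Syp* RNAi tumors, at 89.3 and 89.2 CPM in *pros* RNAi tumors, and at 52.9 and 55.7 CPM in wild-type VNCs. It was higher in each tumor than in wild type and lower in *pros Syp* than in *pros* RNAi tumors (log2 fold change -0.39, adjusted p = 0.0170), unlike *gcm*.

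**Figure D4:**
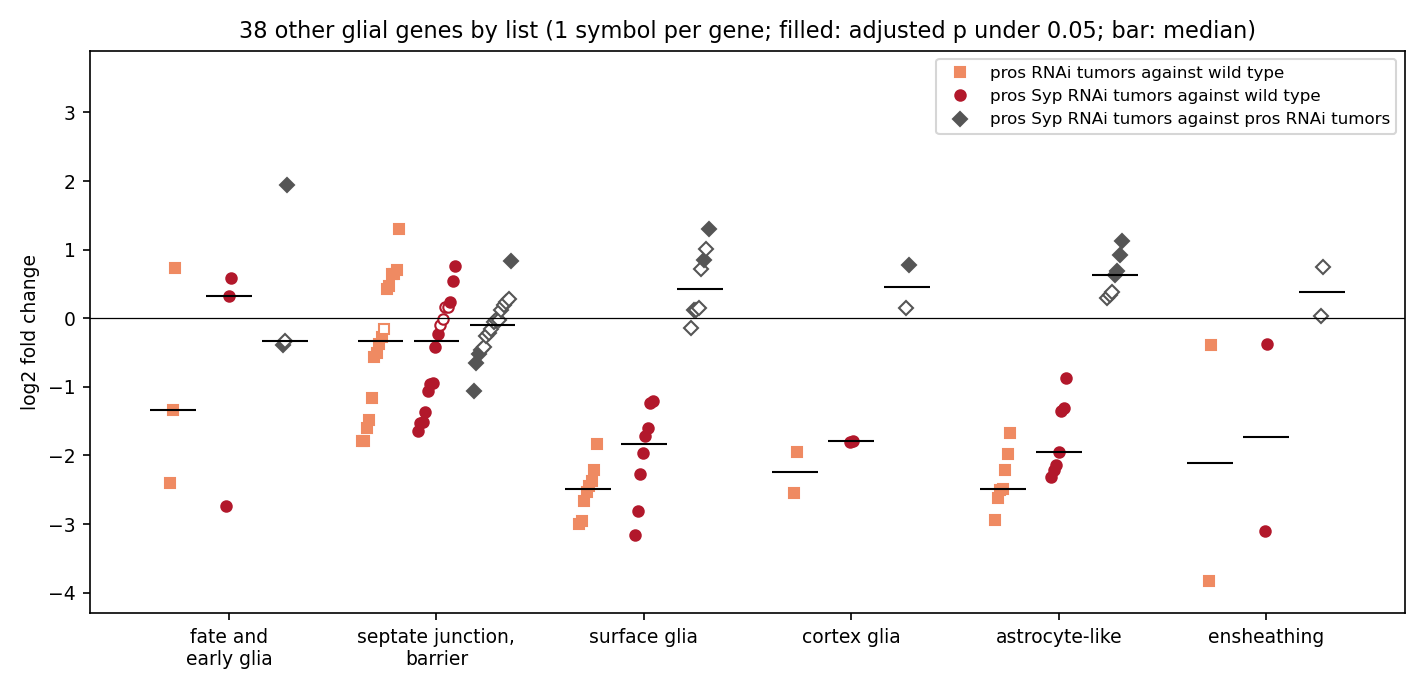
Log2 fold change (y axis) of 38 other glial genes in 6 lists, 1 symbol per gene, for the 3 comparisons, with filled symbols for an adjusted p under 0.05 and bars for the medians. The surface glia (transport and matrix), cortex glia, astrocyte-like (with transmitter clearance) and ensheathing genes lay below 0 in both comparisons with wild type with TMM. Relative to neuron markers 6 of the 38 were called lower in *pros Syp* and 8 in *pros* RNAi tumors. The 7 genes of the astrocyte-like and transmitter clearance list lay above 0 between the tumors, at 0.29 to 1.12.

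Markers of other cells moved in the same comparisons. The 10 neuron markers summed to 2134 and 2829 CPM in *pros Syp* RNAi tumors, to 1605 and 1911 CPM in *pros* RNAi tumors, and to 8218 and 8096 CPM in wild-type VNCs. These are *elav*, *nSyb*, *brp*, *Syt1*, *para*, *cac*, *VAChT*, *Gad1*, *VGlut* and *Rdl*. All 10 were lower in each tumor than in wild type, with medians of -1.78 in *pros Syp* and -2.44 in *pros* RNAi tumors. Between the tumors 3 were higher and 1 lower (median 0.64). *cac* fell least in *pros* RNAi tumors against wild type (log2 fold change -0.62) and was the gene called lower between the tumors (-0.41). The 12 muscle markers summed to 1219 and 2040 CPM in *pros Syp* RNAi tumors, to 295 and 291 CPM in *pros* RNAi tumors, and to 938 and 1330 CPM in wild-type VNCs, and 11 of 12 were higher between the tumors (median 3.14). No gene of either list was at 0 in any library. The 8 fat body markers summed to 999.9 and 1091 CPM, 2470 and 1905 CPM, and 7389 and 6501 CPM in *pros Syp* RNAi tumors, *pros* RNAi tumors and wild-type VNCs. Between the tumors 5 of the 8 were lower, and 2 were higher from very low levels (*Fbp1* at 5.12 and 20.5 CPM in *pros Syp* RNAi tumors, against 0.0427 and 0.0517 CPM in *pros* RNAi tumors, and *Fbp2*). The 5 trachea markers summed to 11.8 and 16.4 CPM in *pros Syp* RNAi tumors, to 7.95 and 8.22 CPM in *pros* RNAi tumors and to 26.3 and 26.9 CPM in wild-type VNCs, and 3 of 5 were higher between the tumors (median 1.83). All 10 glial genes were higher in replicate 2 than in replicate 1 of the *pros Syp* RNAi tumors, by 1.11 times (*Nrg*) to 1.70 times (*moody*), and so were the sums of the neuron markers (1.33 times), the muscle markers (1.67 times) and the trachea markers (1.39 times), but not that of the NB markers (0.941 times). The part of these other cells in the levels of *Gat*, *alrm*, *nrv2* and *Eaat1* was not tested.

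**Figure D5:**
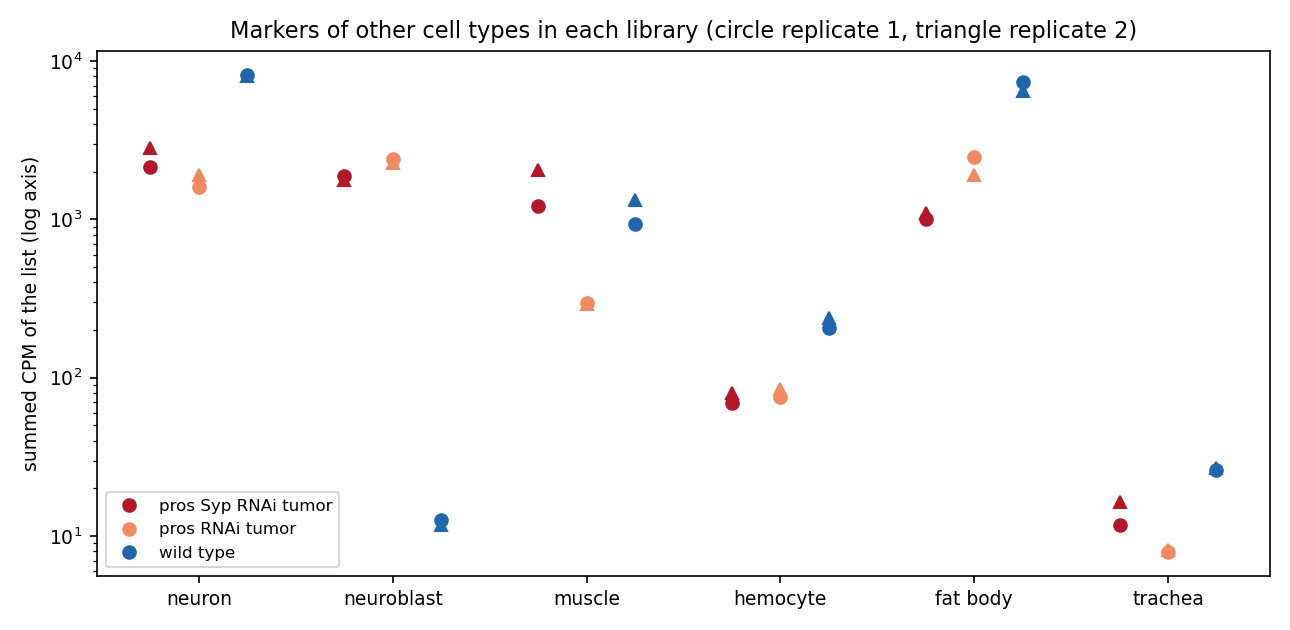
Summed CPM (log axis) of marker lists of other cell types in each library, with *pros Syp* RNAi tumors left, *pros* RNAi tumors in the middle and wild-type VNCs right for each list. Neuron markers stood between 1605 and 2829 CPM in the tumors and at 8096 to 8218 CPM in wild-type VNCs, and muscle markers were at 291 to 295 CPM in *pros* RNAi tumors only.

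Levels relative to neurons were obtained by scaling each library to the summed counts of its 10 neuron markers. Of these sums *cac* alone held a mean of 433 CPM in *pros* RNAi tumors (sums of 1605 and 1911 CPM). In wild-type VNCs it held 675 CPM (sums of 8218 and 8096 CPM). A scale without *cac* was not tried. The scale used shifted the median of all genes by 2.21, 1.74 and -0.48 on the log2 scale in *pros* RNAi tumors against wild type, *pros Syp* RNAi tumors against wild type and *pros Syp* against *pros* RNAi tumors. On that scale *repo* (-0.29, adjusted p = 0.0749), *nrv2* (-0.24, 0.166), *alrm* (-0.32, 0.0702), *Gat* (-0.025, 0.887) and *wrapper* (0.020, 0.897) did not pass the threshold in *pros* RNAi tumors against wild type. *moody* was higher (0.79, adjusted p = 0.000239), as were *Eaat1* (2.02, 5.59e-07), *Nrg* and *gcm*. In *pros Syp* RNAi tumors against wild type on that scale, *repo* (-0.95, adjusted p = 0.000694) and *wrapper* (-1.04, 0.000239) stayed lower, *Gat* was higher (1.34, 6.71e-05), and *nrv2* (0.043, 0.847) and *alrm* (0.33, 0.150) did not pass. Between the tumors *Gat* (1.36, adjusted p = 0.000181) and *gcm* (2.07, 6.31e-06) stayed higher relative to neurons and *wrapper* lower (-1.06, 0.000572), while *nrv2* (0.29, 0.469), *alrm* (0.65, 0.0572) and *Eaat1* (0.24, 0.544) did not pass. *repo* (-0.67, 0.0404), *moody* (-0.99, 0.00142) and *Nrg* (-0.75, 0.0496) were then called lower in *pros Syp* RNAi tumors. These p-values are from edgeR's quasi-likelihood test.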

How the data were processed

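The authors mapped reads to dmel6 with Subread (the processing notes list dm3 as build and bcl2fastq 2.17.1.14) and counted them on exons by gene symbol with featureCounts 1.5.0 and FlyBase release 6.19, per the file headers. The deposited table holds raw counts for 17494 genes, with 0 columns of unknown sample. The header gives no strand setting, although the kit keeps strand, nor an option to count read pairs once, and a read over several genes was given to each of them. The methods describe rRNA-depleted total RNA, whereas a label says polyA.

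R 4.3.3 with edgeR 4.0.16 was applied to each comparison and its 4 libraries, using filterByExpr (minimum count 10), TMM, the quasi-likelihood test (glmQLFit, glmQLFTest) and Benjamini-Hochberg adjustment over all genes tested. The standard error is the log2 fold change divided by the square root of F. The fit was tested on simulated data. A gene was called at an adjusted p under 0.05. The study's methods used DESeq2 and a stricter 0.001, which is an alternative, as are DESeq2 1.42.0 (size factors and Wald test), library totals with and without rRNA and mitochondrial genes, scaling to neuron markers, other count filters, a joint fit of the 6 libraries, a block for the replicate number, and each library left out. Log2 CPM for likeness used a prior count of 2. Intervals for few counts are exact binomial at 95% and cover counting error only.

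The 10 genes and the lists were chosen with earlier results of these data known. Named are the 10 genes, in each list and comparison the gene with the largest called change in each direction, and the 5 genes most like *repo*. Other genes were named after their values were seen. Sequences were not used here.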

Additional observations from a re-analysis of the deposited data

Results flagged for a closer look

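For 6 of the 10 glial genes the level differed between the tumors. They are the genes called in *pros Syp* against *pros* RNAi tumors with edgeR's quasi-likelihood test. The values below are from that same fit and are no separate test. Relative to neuron markers only *gcm*, *Gat* and *wrapper* of the 6 stayed called. The log2 fold change was 2.57 for *gcm*, 1.87 for *Gat*, 1.17 for *alrm*, 0.79 for *nrv2* and 0.73 for *Eaat1*, with both *pros Syp* libraries above both *pros* RNAi libraries. It was -0.56 for *wrapper*, with both *pros Syp* libraries below. The adjusted p-values ran from 0.00816 for *gcm* to 0.0438 for *wrapper*, and 0 of the 6 calls held when either *pros* RNAi library was left out, although each kept its sign (7 and 5 of the 10 glial genes had an unadjusted p under 0.05 without replicate 1 and without replicate 2).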

How the results depend on the processing

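Of 52 fold changes of single genes, 52 kept direction and call with DESeq2's size factors and with genes of at least 1 count, and 51 with DESeq2's Wald test. With a threshold of 0.001 (fewer calls by construction), 7735 genes were called in *pros* RNAi tumors against wild type, 5286 genes, 3 of the 10 glial genes and 16 of the 38 listed in *pros Syp* RNAi tumors against wild type, and 0 genes, 0 of the 10 and 0 of the 38 between the tumors (edgeR, where 5435, 8 and 22 had an unadjusted p under 0.05, and where DESeq2's Wald test called 2005, 5 and 13 at 0.001). Leaving out 1 library gave 6 to 2836 genes between the tumors, with 0 to 7 of the 10 and 0 to 15 of the 38, and the cause was not tested. Scaled to neuron markers, 4 of the 10 were called in *pros* RNAi tumors against wild type, beside 10997 of all 14162 genes. In *pros Syp* RNAi tumors against wild type 22 of the 38 were called, beside 10922 of all 14289 genes. Neuron markers were themselves lower in the tumors. On their scale signs turned for *moody* (0.79), *wrapper* (0.020), *Eaat1* (2.02) and *nrv1* (0.41) in *pros* RNAi tumors against wild type. In *pros Syp* RNAi tumors against wild type signs turned for *nrv2* (0.043), *alrm* (0.33), *Gat* (1.34) and *Lac* (0.067). Calls were then higher in 93.9%, 90.5% and 13.5% of cases in *pros* RNAi tumors against wild type, *pros Syp* RNAi tumors against wild type and between the tumors, beside 50.7%, 52.0% and 46.7% with TMM. Library totals shifted the median of all genes by -0.28, -0.14 and 0.13 and gave 71.8% higher calls between the tumors.

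With the replicate number as a replicate block, 8, 8 and 7 of the 10 genes were called in these comparisons, against 9, 8 and 6 without it. Over all genes 11274 of 14162, 10353 of 14289 and 3466 of 13703 were called with the block. Without it 11700, 10935 and 3190 were called. Among the 10 genes, the call of *Eaat1* in *pros* RNAi tumors against wild type was lost at an edgeR adjusted p of 0.0850. That of *moody* between the tumors was gained at 0.0337. Deviations of equally numbered libraries correlated at -0.14, -0.096 and 0.23 over 14451 genes, and nothing in the labels ties equal numbers to a shared batch. Depth limits *gcm2* and *gcm* in wild type. With 2 libraries per condition, drawn from pooled VNCs, the spread between flies is not measured.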
